A study of Mus musculus with 6 samples.

Results

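The NFY and Sp transcription factor subunits described here are 9 genes, *Nfya*, *Nfyb*, *Nfyc*, *Sp1*, *Sp2*, *Sp3*, *Sp4*, *Usf1* and *Usf2*, taken by symbol from the 13809 genes of a count table of mouse embryonic hearts. All 9 symbols were in the table. They make up the 3 subunits of the NFY complex, 4 Sp factors and the 2 USF factors. RNA-seq libraries were made from hearts at E18.5 (embryonic day 18.5), 3 from wild-type (WT) embryos and 3 from *Pkm1* knockout (KO) embryos, after removal of ribosomal RNA. The labels give the tissue as heart, and the methods of the study narrow it to the ventricles. KO embryos were homozygous for a small CRISPR/Cas9 deletion in the exon of *Pkm* that is used in *Pkm1* transcripts only. The deletion is present in every cell of the embryo, so that heart cells and the rest of the body both carry it. WT embryos carried no edited allele, no treatment is given, and the number of embryos behind a library is not given in the sources used here. The count table names columns by genotype only, and the letters a, b and c follow the order of the columns within a genotype.

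NFY is a complex of NFYa, NFYb and NFYc that binds the CCAAT box found in many promoters. NFYb and NFYc pair through histone-fold domains, and NFYa joins the pair and makes the contact with the CCAAT box. The Sp factors bind GC boxes through zinc fingers, often close to a CCAAT box, and the USF factors bind E boxes as dimers. Cell cycle genes are well known for CCAAT boxes in their promoters, and dividing cardiomyocytes of the fetal heart transcribe many of them. The study examined NFY and Sp factors as possible effectors downstream of PKM1, the pyruvate kinase isoform of adult muscle and heart, and the question addressed here is whether the RNA of these factors differed between KO and WT hearts. RNA counts do not measure the amount, stability or binding of the proteins.

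Promoters are shown for the NFY and Sp genes whose RNA was higher in KO hearts, and for *Sp2*, which was not called, to set out where the letters of the NFY site and the GC box occur in them. The sequences are RefSeq windows of GRCm38.p6 that run from 250 bases before a transcript start to 50 bases after it, 300 bases in all, and 8 of the 9 genes matched at least 1 window, with 16 windows in total. Only the stretch outside annotated exons is printed, in the direction of transcription. Of several windows of a gene, the one with the most CCAAT boxes was chosen for *Nfyc* and *Sp2*, after the matches were seen, and for *Nfya* the longer stretch at the outermost start. Capitals mark the core of the NFY site, which is CCAAT and reads ATTGG where it lies on the other strand. They also mark the GC box, searched as GGGCGG, which reads CCGCCC there. The stretches are chr17:48409907-48410013 on the minus strand for *Nfya*, chr4:120825210-120825459 on the minus strand for *Nfyc*, chr15:102406184-102406315 on the plus strand for *Sp1* and chr11:96977712-96977938 on the minus strand for *Sp2*.
Nfya: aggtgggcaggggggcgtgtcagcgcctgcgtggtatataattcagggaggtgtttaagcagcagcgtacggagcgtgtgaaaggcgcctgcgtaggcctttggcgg
Nfyc: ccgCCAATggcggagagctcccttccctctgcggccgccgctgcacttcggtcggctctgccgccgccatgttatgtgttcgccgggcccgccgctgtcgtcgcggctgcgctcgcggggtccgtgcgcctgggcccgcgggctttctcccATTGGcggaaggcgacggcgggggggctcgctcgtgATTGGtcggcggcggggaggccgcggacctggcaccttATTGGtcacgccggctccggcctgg
Sp1: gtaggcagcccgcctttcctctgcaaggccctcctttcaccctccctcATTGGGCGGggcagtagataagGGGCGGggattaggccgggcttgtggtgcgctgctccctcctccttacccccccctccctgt
Sp2: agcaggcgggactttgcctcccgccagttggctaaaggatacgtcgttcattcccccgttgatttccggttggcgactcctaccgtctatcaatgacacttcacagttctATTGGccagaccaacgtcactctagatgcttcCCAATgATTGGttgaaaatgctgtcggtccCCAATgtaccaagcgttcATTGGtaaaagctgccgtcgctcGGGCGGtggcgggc

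The *Nfya* stretch held neither set of letters in full, and the *Nfyc* stretch, chosen for its CCAAT boxes, held 4 of them. The whole windows of 300 bases behind the printed stretches held more. That of *Nfya* held 1 GC box and that of *Nfyc* 5 CCAAT boxes. That of *Sp1* held 3 CCAAT and 4 GC boxes, and that of *Sp2* 6 CCAAT and 2 GC boxes. The *Sp1* stretch held 1 CCAAT box that overlapped 1 of its 2 GC boxes. The *Sp2* stretch held 5 CCAAT boxes and 1 GC box, whereas the other 2 windows of *Sp2* held neither. Of the other 2 windows of *Nfyc*, 1 held 3 CCAAT boxes and 1 held none. Over whole windows of 300 bases, CCAAT was found on either strand in 7 of the 16 windows of the members, which belonged to 6 of 8 genes (*Nfya*, *Nfyc*, *Sp1*, *Sp2*, *Sp3* and *Sp4*), and in 37.4% of all 32841 windows. For *Nfya*, the window with CCAAT lay at a start within the gene. The printed stretches of *Nfyc*, *Sp1* and *Sp2* also lay within the annotated span of their genes, so that they do not precede the outermost annotated start. GGGCGG was found in 11 of 16 windows, against 35.7% of all windows. Each of the 8 genes had it in at least 1 window, a count by gene that the share by window does not match. Windows of a gene can overlap, as 2 windows of *Nfya* with a GC box do, so that windows are not independent. CACGTG, the E box bound by USF and identical on both strands, was in 1 of 16 windows, at *Sp2*, against 7.15% of all windows. These matches describe letters in a window and do not show that a factor was bound.

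The PCR primers that the study listed for *Nfya* are shown because they mark the piece of the transcript that a qPCR assay reads. The counts used here are instead given for each gene symbol. The forward primer lies at chr17:48395689-48395709 in exon 4 and the reverse primer at chr17:48393468-48393487 in exon 5 of the 10 exons of the first listed *Nfya* transcript, both in coding sequence of GRCm38.
Forward primer: ggtggacaaggccaaaccatc
Reverse primer: tctgctgggtttgaccctgc

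Both primers were found in 8 of the 13 annotated *Nfya* transcripts, including 7 of the 9 that code for protein, with a product of 145 bp in each. A gene count is not limited to this product. Which annotated transcripts the authors' counting covered is not given in the sources used here. By qPCR with a t test between groups, the study reported unaltered *Nfya* mRNA in KO hearts at E18.5. The counts below were higher in KO hearts, by a factor of 1.20. How small a change the qPCR could detect is not given in the study. The reason for this difference was not tested.

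The libraries held 15597756 to 19875546 counts, and 3 counts, taken as the limit of detection, corresponded to 0.153 to 0.197 CPM (counts scaled to the size of the library with TMM factors). Members had between 321 and 2533 counts in each library, so that none was near that limit, and the limit covers counting error only. *Pkm*, the targeted gene, was at 1318 ± 41.1 CPM in the WT and 542 ± 10.1 CPM (SD, n = 3 each) in the KO libraries, a check of the labels, although gene counts do not part *Pkm1* from *Pkm2*. *Xist* had 73 to 102 counts in WT and 36933 to 42574 in KO libraries, and the Y-linked *Ddx3y* had 1314 to 1866 counts in WT and 0 in KO libraries. Sex-linked transcripts thus separated the libraries as genotype did, and the part of sex and that of genotype in any value below cannot be told apart. All 9 members lie on autosomes. Markers of cardiomyocytes were at a summed 125149 to 128108 CPM in WT and 117601 to 119032 CPM in KO libraries, with 6 of 8 lower and 1 higher in KO hearts. Markers of the epicardium, the outer cell layer of the heart, were at a summed 66.5 to 70.2 CPM in WT and 82.4 to 87.1 CPM in KO libraries, with 3 of 4 higher. Atrial markers were at 586 to 594 CPM in WT and 999 to 1022 CPM in KO libraries, with 3 of 5 tested higher. The higher ones were *Myl4*, *Myl7* and *Nppa*, whereas *Nr2f1* and *Nr2f2* were not called (log2 fold changes -0.23 and 0.06). Endothelial, fibroblast, mural and immune markers had 3 of 5, 2 of 5, 3 of 4 and 1 of 5 genes lower and none called higher. Of the 6 erythroid markers, the 4 globin genes were not among the genes of the table, and 1 of the 2 tested was higher, with sums of 27.2 to 28.0 CPM in WT and 31.0 to 37.5 CPM in KO libraries. Beside these marker counts, 15.7% of all genes tested were called lower and 14.6% higher, at the threshold given below. In bulk tissue, fewer cells of a type and less RNA per cell cannot be told apart, and the part of these shifts in the values of the members was not tested.

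*Nfya* and *Nfyc* RNA was higher in KO hearts, by factors of 1.20 and 1.17, and *Sp1* RNA by a factor of 1.09, whereas no member was called lower. All 9 members were tested. With the threshold at an adjusted p of 0.05 in the quasi-likelihood test of edgeR, adjusted by Benjamini-Hochberg over 13804 genes, 3 of 9 members were higher, where 14.6% of all genes were higher, and 0 of 9 were lower, where 15.7% of all genes were lower. At an unadjusted p under 0.05, 3 members were higher, where 20.0% of all genes were, and 3 were lower, where 20.8% of all genes were. DESeq2 and limma's voom also called 3 higher and 0 lower, and edgeR's exact test called 3 higher and 1 lower. No member changed by 1.5-fold or more, where 6.19% of all genes were called with such a change. The 95% intervals of all 9 members lay within 1.5-fold, between factors of 0.801 and 1.30. WT and KO libraries did not overlap for 5 of 9 members, 3 higher and 2 lower, where 42.4% of all genes did not overlap. The median log2 fold change was -0.02 over the members and 0.00172 over all genes tested.

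**Figure D1:**
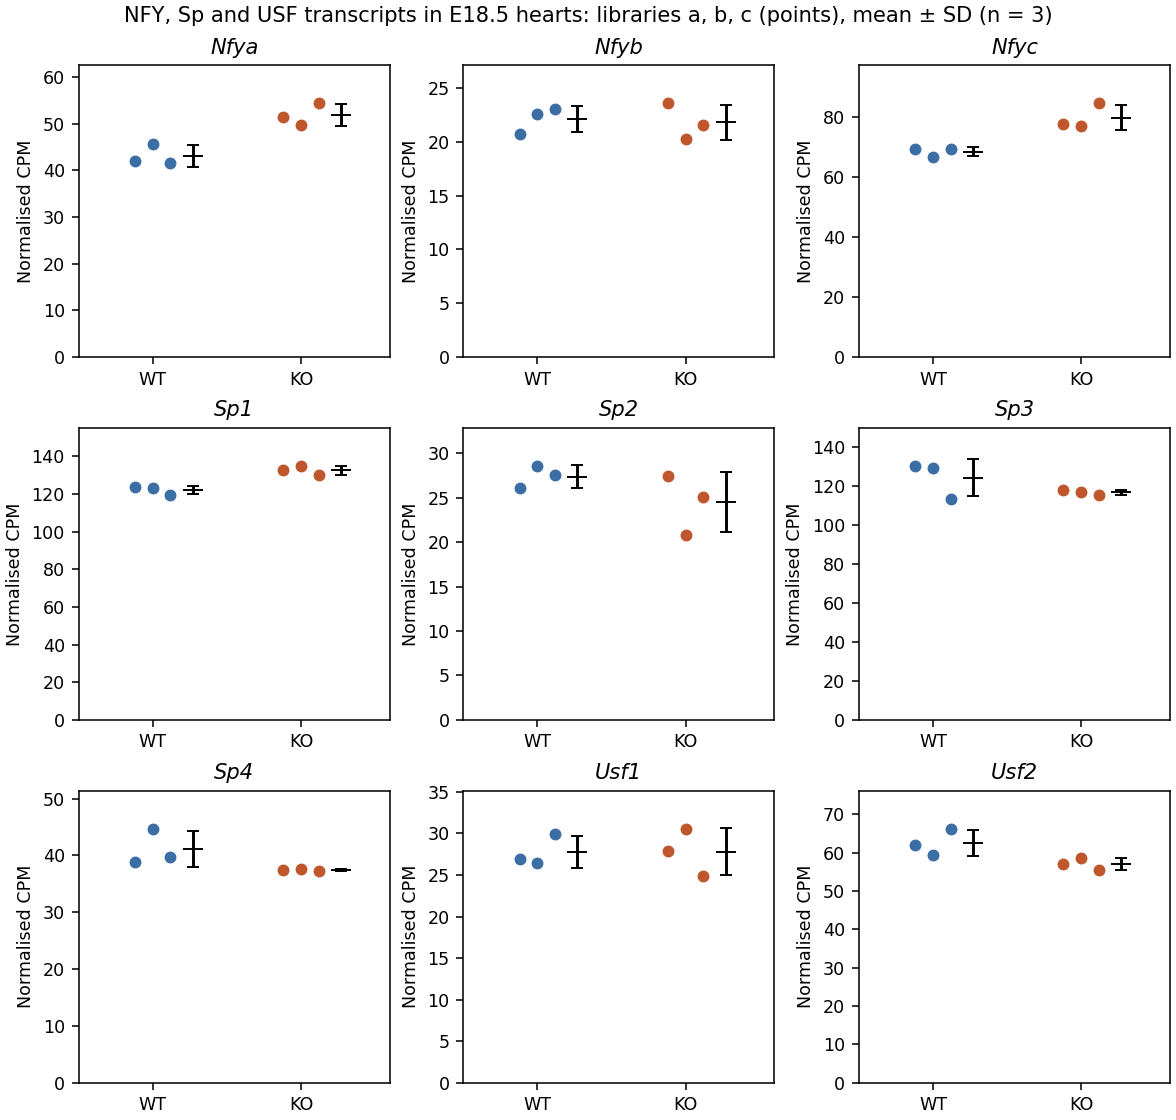
Normalised CPM (y axis, from 0) of the 9 members in each library (points a, b and c from left to right) of WT (blue) and KO (orange) hearts, with mean ± SD of 3 libraries at the right of each group. The KO points of *Nfya*, *Nfyc* and *Sp1* lie above all WT points, those of *Sp4* and *Usf2* lie below them, and the other members overlap.

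*Nfya* encodes the subunit that reads the CCAAT box and lies at chr17:48386885-48409906 on the minus strand of GRCm38. It was at 41.9, 45.7 and 41.5 CPM in WT a, b and c and at 51.4, 49.7 and 54.4 CPM in KO a, b and c. Every KO library was above every WT library, and the gap between KO b and WT b was the narrowest. The means were 43.1 ± 2.32 and 51.8 ± 2.39 CPM (SD, n = 3 each), which is a log2 change of 0.27 (SE 0.0564, 95% interval 0.15 to 0.38, adjusted p = 6.92e-04, edgeR quasi-likelihood test, Benjamini-Hochberg). The increase was called in 14 of 14 alternative analyses, and log2 fold changes with 1 library left out lay between 0.23 and 0.31. Its rise was moderate among all genes, 24.2% of which had a larger absolute change. None of the 50-base words of its transcripts was shared with another annotated gene.

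*Nfyb* encodes a histone-fold subunit, at chr10:82748701-82764144 on the minus strand. It was at 20.7, 22.6 and 23.1 CPM in WT a, b and c and at 23.6, 20.3 and 21.5 CPM in KO a, b and c. The groups overlapped, with KO a the highest and KO b the lowest of the 6 libraries. The log2 fold change was -0.02 (95% interval -0.17 to 0.14, adjusted p = 0.890, edgeR quasi-likelihood test, Benjamini-Hochberg). The interval leaves room for a change of up to 0.887 times or 1.10 times the WT level. The changes estimated for *Nfya* and *Nfyc* lie outside it, which is not a test between genes. The interval of *Nfyc* (0.12 to 0.32) overlapped that of *Nfyb*, and that of *Nfya* (0.15 to 0.38) did not.

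*Nfyc* encodes the histone-fold partner of NFYb, at chr4:120757438-120831572 on the minus strand. It was at 69.2, 66.9 and 69.4 CPM in WT a, b and c and at 77.8, 76.9 and 84.6 CPM in KO a, b and c. Every KO library lay above the highest WT library, and KO c was the highest. The means were 68.5 ± 1.43 and 79.8 ± 4.22 CPM (SD, n = 3 each), which is a log2 change of 0.22 (SE 0.0476, 95% interval 0.12 to 0.32, adjusted p = 7.73e-04, edgeR quasi-likelihood test, Benjamini-Hochberg), which was called in 14 of 14 alternatives. Of the 50-base words of *Nfyc* transcripts, 22.2% also occur in *Gm9144*, which was not among the genes of the table, and the treatment of shared reads in the authors' counting is not given in the sources used here, so that the value of *Nfyc* is less certain than that of *Nfya*.

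*Sp1* encodes the founding GC-box activator, at chr15:102406143-102436404 on the plus strand. It was at 124, 123 and 119.6 CPM in WT a, b and c and at 133, 135 and 130.0 CPM in KO a, b and c. The groups did not overlap, and the spread within each was small. The means were 122 ± 2.22 and 133 ± 2.44 CPM (SD, n = 3 each), which is a log2 change of 0.12 (SE 0.0374, 95% interval 0.04 to 0.20, adjusted p = 0.0174, edgeR quasi-likelihood test, Benjamini-Hochberg). The call was lost without KO a (log2 fold change 0.12, adjusted p = 0.0616) and without KO b (0.11, adjusted p = 0.0810), and was made in the other 12 of 14 alternatives. The change was small among all genes, 53.8% of which changed more.

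*Sp3*, which encodes a GC-box factor that can activate or repress, lies at chr2:72936427-72980446 on the minus strand. It was at 130.1, 129 and 113 CPM in WT a, b and c and at 118, 117 and 115 CPM in KO a, b and c. WT c was the lowest of all 6 libraries, below the KO libraries, while WT a and WT b were the highest. The log2 fold change was -0.09 (95% interval -0.19 to -0.000739, adjusted p = 0.120, edgeR quasi-likelihood test, Benjamini-Hochberg). Without WT c, *Sp3* was called lower in KO hearts (log2 fold change -0.16, adjusted p = 5.25e-04, same test), the only call in 14 alternatives. Without WT a the log2 fold change shrank to -0.0610 (adjusted p = 0.375) and without WT b to -0.0646 (adjusted p = 0.399, same test). The result thus depended on which WT libraries were included. The WT libraries varied by 7.76% (coefficient of variation), where counting error alone gives 2.15%. *Sp3* shares 109 exonic bases with the antisense gene *Sp3os*, and strandedness of the counting is not given in the sources used here.

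*Sp4*, which encodes a GC-box activator best known from neurons, lies at chr12:118234933-118301440 on the minus strand. It was at 38.9, 44.7 and 39.7 CPM in WT a, b and c and at 37.5, 37.6 and 37.2 CPM in KO a, b and c. All KO libraries were below the lowest WT library, with WT b well above the rest. The log2 fold change of -0.14 (95% interval -0.26 to -0.01) did not pass the threshold (adjusted p = 0.0844, edgeR quasi-likelihood test, Benjamini-Hochberg). In the same test it did without WT a (log2 fold change -0.18, adjusted p = 0.0409) or without WT c (-0.16, adjusted p = 0.0355), 2 of 14 alternatives. Without WT b, the log2 fold change shrank to -0.07 (adjusted p = 0.454, same test), so that the size of the change depended on that library. The KO libraries varied by 0.522%, less than the 3.88% that counting error gives, and the WT libraries by 7.70%.

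*Sp2*, which encodes the Sp family member that binds many CCAAT-containing promoters together with NFY, lies at chr11:96953341-96982959 on the minus strand. It was at 26.1, 28.6 and 27.5 CPM in WT a, b and c and at 27.5, 20.8 and 25.1 CPM in KO a, b and c. KO b stood below the other libraries, and KO a lay within the WT range. The log2 fold change was -0.16 (95% interval -0.32 to 0.01, adjusted p = 0.144, edgeR quasi-likelihood test, Benjamini-Hochberg), -0.25 without KO a (adjusted p = 0.0417, a call) and -0.06 without KO b. The KO libraries varied by 13.8%, against 4.77% from counting error. *Sp2* shares 126 exonic bases with *D030028A08Rik* on the opposite strand.

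*Usf1* and *Usf2* encode the E-box factors, at chr1:171411313-171419142 on the plus strand and chr7:30945248-30956803 on the minus strand. *Usf1* was at 26.9, 26.5 and 30.0 CPM in WT a, b and c and at 27.9, 30.6 and 24.9 CPM in KO a, b and c. Its groups overlapped fully, with means of 27.8 ± 1.90 and 27.8 ± 2.83 CPM (SD, n = 3 each) and a 95% interval of -0.15 to 0.15 for the log2 fold change. *Usf2* was at 61.9, 59.5 and 66.2 CPM in WT a, b and c and at 57.0, 58.7 and 55.5 CPM in KO a, b and c. All KO libraries of *Usf2* were below the lowest WT library, although KO b and WT b were close. Its log2 fold change was -0.13 (95% interval -0.24 to -0.03, adjusted p = 0.0544, edgeR quasi-likelihood test, Benjamini-Hochberg), just outside the threshold. *Usf2* was called lower without WT b (log2 fold change -0.17, adjusted p = 0.0351), with *Rn45s*, a ribosomal RNA gene, left out of the scaling (-0.14, adjusted p = 0.0428) and by edgeR's exact test (adjusted p = 0.0434). These were 3 of 14 alternatives. The quasi-likelihood test gave -0.09 without WT c (adjusted p = 0.171) and -0.11 without KO c (adjusted p = 0.183). DESeq2 gave an adjusted p of 0.125. *Usf1* shares 200 exonic bases with *Tstd1* on the same strand and 17.2% of its 50-base words with other genes, first among them *Gm12345*. *Usf2* shares 7.09% of its words with *Usf2-ps1*, and 74 and 167 exonic bases with *Gm44662* and *Gm17077* on the opposite strand.

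**Figure D2:**
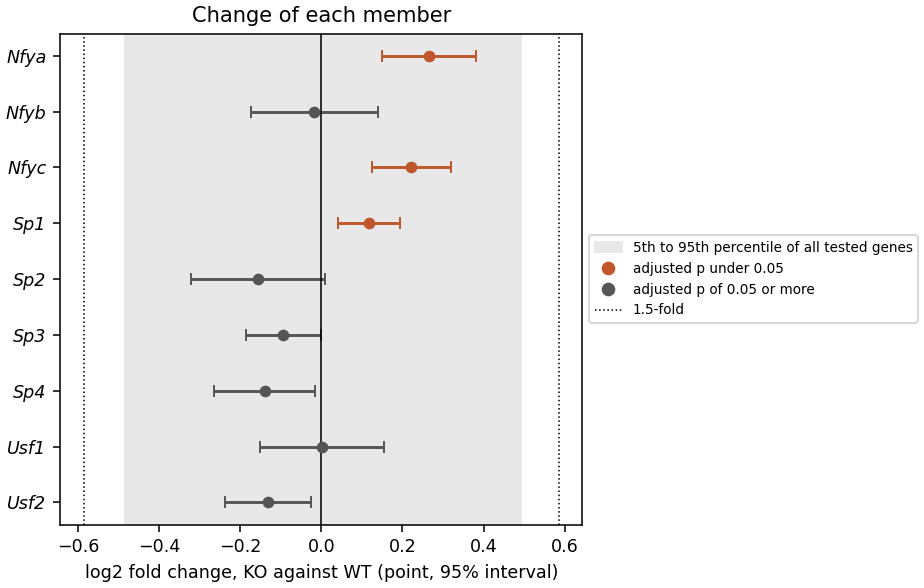
Log2 fold change of KO against WT (x axis) for each member (y axis), with points at the estimates, bars for 95% intervals, orange for an adjusted p under 0.05 and grey for the rest. The shaded band runs from the 5th to the 95th percentile of all tested genes (-0.48 to 0.49), dotted lines mark 1.5-fold, and every member's interval lies inside the dotted lines.

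The subunits of a complex can also be set against each other within a library, where the scaling of libraries has no effect on the ratio. Of the reads on the 3 NFY genes, *Nfya* took 31.0% to 33.8% in WT and 33.6% to 33.9% in KO libraries, and *Nfyc* took 49.5% to 52.5% and 50.9% to 52.7%. *Nfyb* took 15.7% to 17.2% in WT and 13.4% to 15.4% in KO libraries, a lower share in every KO library than in any WT library. A rise of *Nfya* and *Nfyc* by itself lowers the share of *Nfyb*. These are shares of counts, not of molecules, since the genes differ in length.

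There were 0.494, 0.493 and 0.555 *Nfyb* counts per *Nfya* count in WT a, b and c and 0.459, 0.408 and 0.395 in KO a, b and c. The ratio was lower in all 3 KO libraries, with geometric means of 0.514 and 0.420 and a log2 difference of -0.29. The *Nfyc* to *Nfya* ratio overlapped between the groups, at 1.46 to 1.67 in WT and 1.51 to 1.56 in KO libraries (log2 difference -0.05). Both ratios to *Sp1* were lower in every KO library than in any WT library. The divisors *Nfya* and *Sp1* were themselves called higher in KO hearts, so that lower ratios to them are not separate from those calls. The ratios to *Sp1* also share their divisor. No share without overlap was computed for ratios of other genes. There were 1.05, 1.05 and 0.945 *Sp3* counts per *Sp1* count in WT a, b and c and 0.886, 0.865 and 0.887 in KO a, b and c (log2 difference -0.21). *Sp4* to *Sp1* ratios were 0.314, 0.364 and 0.332 in WT a, b and c and 0.282, 0.279 and 0.286 in KO a, b and c (log2 difference -0.25). The *Usf2* to *Usf1* ratio overlapped, at 2.21 to 2.30 in WT and 1.92 to 2.23 in KO libraries. In two-sided exact permutation tests, the 3 ratios without overlap reached p = 0.1, the smallest that 3 against 3 libraries allow, and an adjusted p of 0.167 over 5 ratios, so that none could pass 0.05. The *Nfyc* to *Nfya* ratio had p = 0.4 and the *Usf2* to *Usf1* ratio p = 0.2 in the same exact permutation tests.

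**Figure D3:**
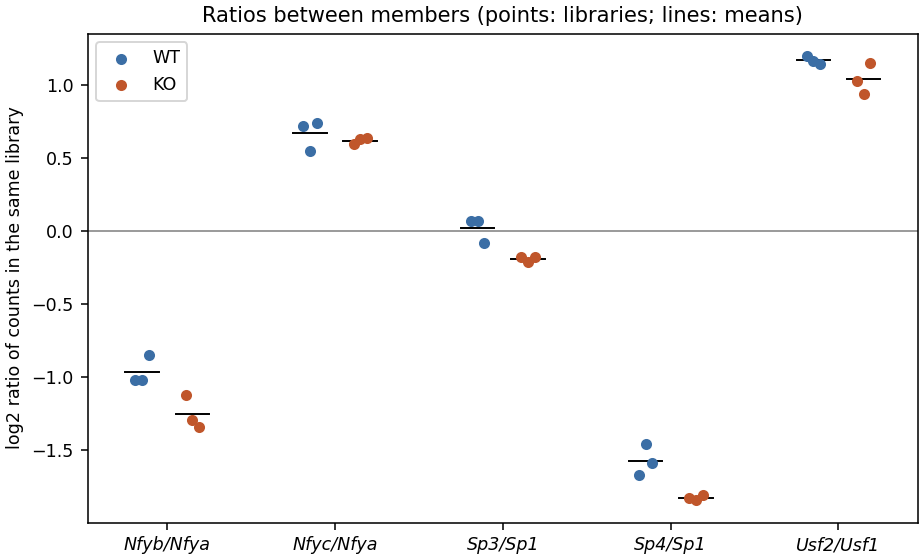
Log2 ratio of counts of a pair of members in the same library (y axis) for 5 pairs (x axis), with a point for each WT (blue) and KO (orange) library and a line at each mean. WT and KO points are apart for *Nfyb*/*Nfya*, *Sp3*/*Sp1* and *Sp4*/*Sp1* and overlap for the other pairs.

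To compare genes with each other, CPM was divided by the length of all annotated exons of a gene in kilobases. On this scale of CPM per kb, averaged over the 6 libraries, the order of the members was *Nfyc* (25.2), *Sp3* (24.4), *Usf2* (22.6), *Sp1* (15.4), *Usf1* (9.90), *Sp2* (7.60), *Sp4* (6.80), *Nfya* (6.49) and *Nfyb* (4.33). *Nfyc* exceeded *Sp3* in 4 of 6 libraries and *Sp3* exceeded *Usf2* in 5 of 6, and the ranges of these neighbours overlapped, so that the first 3 genes had no firm order. The ranges of *Sp2* and *Sp4* overlapped too, as did those of *Sp4* and *Nfya*, and *Sp4* exceeded *Nfya* in 3 of 6 libraries. All 6 libraries lay apart for *Usf2* over *Sp1*, *Sp1* over *Usf1*, *Usf1* over *Sp2* and *Nfya* over *Nfyb*. Among the 3 NFY transcripts, *Nfyc* was at the highest level per length and *Nfyb* at the lowest. The level of *Nfya* depended on the length used, and was 12.8 CPM per kb when divided by its longest transcript, next to *Usf1*.

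**Figure D4:**
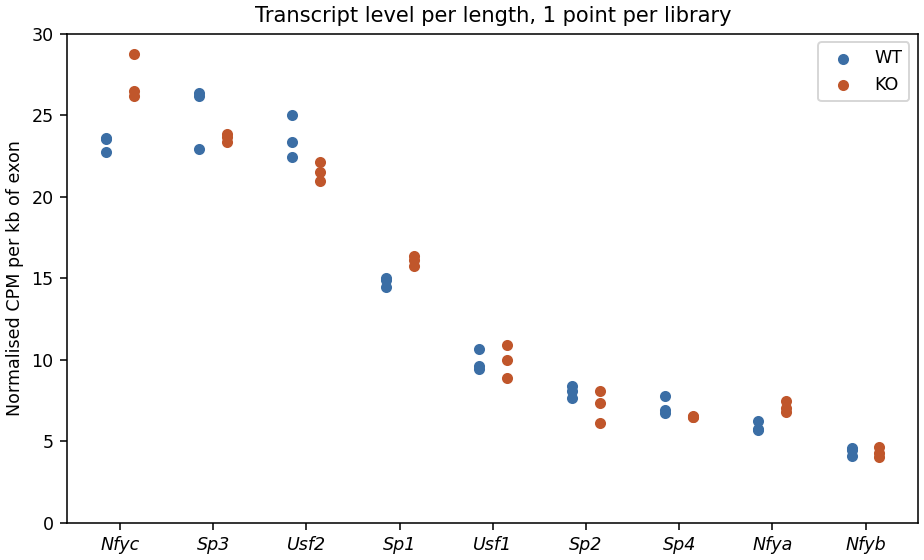
Normalised CPM per kb of annotated exon (y axis, from 0) of each member (x axis, from the highest mean to the lowest), with a point for each WT (blue) and KO (orange) library. *Nfyc*, *Sp3* and *Usf2* lie between 20.9 and 28.8, *Sp1* between 14.5 and 16.3, and the other members at 10.9 or below.

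Further genes of the same families and pathways were counted as lists, with the percentages of all genes given above as background. The KLF family, zinc-finger relatives of the Sp factors, had 7 of 15 tested genes lower in KO hearts and 1 higher, and a median log2 fold change of -0.19. *Klf9*, a factor induced by glucocorticoid and thyroid hormones, dropped from 51.3 ± 4.36 to 16.2 ± 0.311 CPM (mean ± SD of 3 libraries each), with a log2 fold change of -1.66. *Klf6*, an early response gene, was at 218, 208 and 224 CPM in WT a, b and c and at 101, 99.8 and 99.7 CPM in KO a, b and c. Its libraries were far apart, with a log2 fold change of -1.11 (adjusted p = 8.61e-19, edgeR quasi-likelihood test, Benjamini-Hochberg). *Klf4*, known from pluripotent cells and vascular endothelium, fell by 1.01 on the log2 scale. *Klf16* was the higher one, with a log2 fold change of 0.35, and its libraries overlapped. The KLF genes summed to 682 to 715 CPM in WT and 469 to 481 CPM in KO libraries. Endothelial markers had 3 of 5 lower, with summed levels of 981 to 989 CPM in WT and 912 to 927 CPM in KO libraries. Cardiomyocyte markers had 6 of 8 lower and 1 higher, and mural markers 3 of 4 lower. The part of any cell type in the KLF values was not tested. The 5 other Sp genes, *Sp5* to *Sp9*, were not among the genes of the table.

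Among 5 histone-fold relatives of NFYb and NFYc, 2 were lower and 3 were not called, with a median log2 fold change of -0.01. *Drap1*, the corepressor partner of Dr1, fell from 65.2 ± 5.13 to 52.7 ± 2.84 CPM (SD, n = 3 each) and *Pole3*, a histone-fold subunit of DNA polymerase epsilon, from 10.5 ± 1.38 to 8.36 ± 0.558 CPM (SD, n = 3 each). Other factors named for CCAAT-like sequences, the C/EBP, NFI and Y-box proteins, had 8 of 11 tested genes lower and 3 not called, with a median of -0.22. *Cebpd* and *Cebpb*, which respond to inflammatory and hormonal signals, had the largest changes, with log2 fold changes of -1.18 and -1.10. *Ybx1*, an RNA- and DNA-binding cold-shock protein, fell by 0.27 on the log2 scale. These factors do not share subunits with NFY.

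E-box relatives of the USF factors had 6 of 15 tested genes lower and 4 higher, with a median log2 fold change of -0.13. *Srebf2*, the regulator of cholesterol synthesis, dropped from 164 ± 5.68 to 124 ± 4.40 CPM (mean ± SD of 3 libraries each), with a log2 fold change of -0.40. *Mlxip*, a glucose-sensing factor, and *Tfe3*, a regulator of lysosomal genes, fell by 0.24 and 0.26. *Srebf1*, the lipogenic relative of *Srebf2*, rose by 0.19, and *Mga* and *Mitf* each rose by 0.14. Of 21 tested coactivators, corepressors and modifying enzymes, 4 were higher and 2 lower, near the shares of all genes, with a median of -0.04. *Ogt*, whose product adds sugar residues to Sp1 and many other proteins, rose by 0.17, *Ep300*, a histone acetyltransferase, by 0.19 and *Med23*, a Mediator subunit, by 0.16. *Taf7*, a TFIID subunit, fell by 0.36 on the log2 scale.

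AMPK is the kinase that senses a fall in cellular energy, and the study examined it together with NFYa. Of its subunits and upstream kinases, 3 of 11 were higher and 1 lower, with a median log2 fold change of 0.11. *Prkag1*, a regulatory subunit that binds AMP, was at 50.5, 46.3 and 51.3 CPM in WT a, b and c and at 58.3, 59.2 and 59.8 CPM in KO a, b and c. The groups were well apart, with a log2 fold change of 0.26 (adjusted p = 3.82e-04, edgeR quasi-likelihood test, Benjamini-Hochberg). *Prkaa1*, a catalytic subunit, and *Prkag2*, another regulatory subunit, rose by 0.19 and 0.12, and *Cab39*, a partner of the upstream kinase LKB1, fell by 0.12 on the log2 scale. *Prkaa2*, the other catalytic subunit, had a log2 fold change of 0.04 and overlapping libraries. RNA counts do not measure the activity of the kinase.

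**Figure D5:**
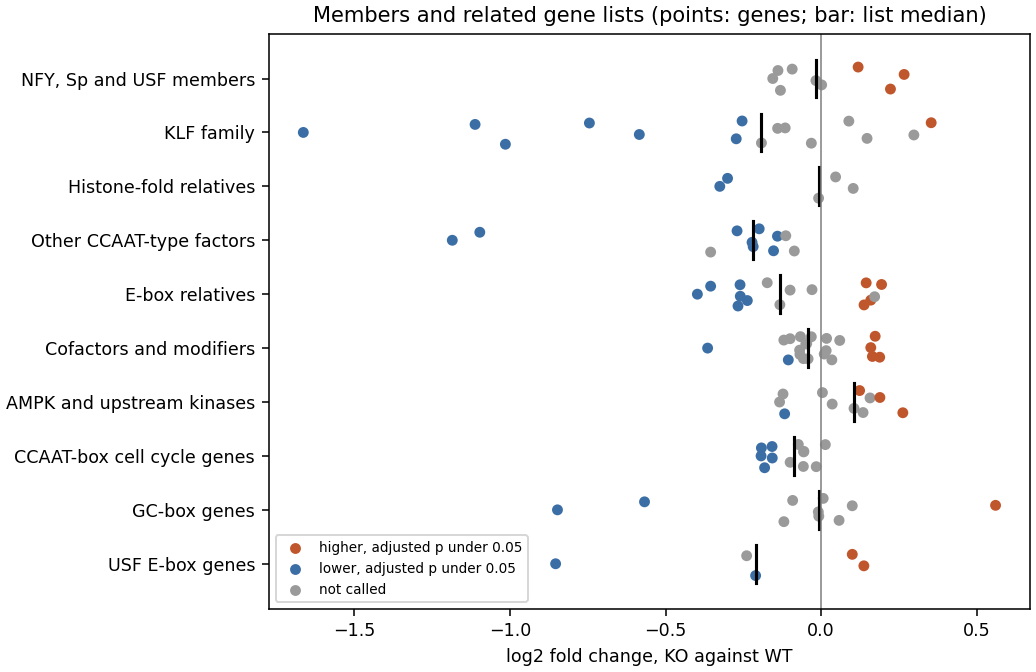
Log2 fold change of KO against WT (x axis) of each tested gene (points) in the members and 9 related lists (y axis), with orange for genes called higher, blue for genes called lower, grey for the rest and a black bar at each list median. The medians run from -0.22 in the CCAAT-type factors to 0.11 in AMPK and its upstream kinases, and that of the members is -0.02.

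Genes whose promoters are textbook examples for these factors were counted last. Of 12 cell cycle genes with CCAAT boxes, 5 were lower and 7 were not called, with a median log2 fold change of -0.09. In the same comparison, *Nfya* and *Nfyc* RNA was higher in KO hearts. By western blot and staining, the study reported less NFYa protein in KO embryonic hearts. The RNA values given here do not measure that protein. *Ccna2*, the cyclin of S and G2 phases, was at 138, 129 and 128 CPM in WT a, b and c and at 121, 117 and 116 CPM in KO a, b and c. No library crossed between the groups, and the log2 fold change was -0.16 (SE 0.0397, adjusted p = 0.00335, edgeR quasi-likelihood test, Benjamini-Hochberg). *Cdc20*, an activator of the anaphase-promoting complex, and *Ccnb2*, a mitotic cyclin, each fell by 0.19 on the log2 scale. *Tk1*, *Aurka* and *Ccnb1* were not called, with log2 fold changes of 0.01, -0.02 and -0.06. Summed over the 12 genes, libraries held 937 to 959 CPM in WT and 880 to 887 CPM in KO hearts.

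Of 10 genes with GC-box promoters, 1 was higher and 2 were lower, with a median log2 fold change of -0.01. *Vegfa*, the angiogenic growth factor, rose from 363 ± 9.32 to 536 ± 4.28 CPM (mean ± SD of 3 libraries each), with a log2 fold change of 0.56. *Cdkn1a*, a cell cycle inhibitor, fell from 44.1 ± 2.07 to 29.8 ± 2.76 CPM (SD, n = 3 each). Of 5 tested genes with USF E boxes, 2 were higher and 2 lower, with a median of -0.21. *Fasn*, the fatty acid synthase, fell by 0.21 on the log2 scale. *Igf2r*, a receptor that clears IGF2, and *Abca1*, a cholesterol exporter, rose by 0.10 and 0.14.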

How the data were processed

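After depletion of ribosomal RNA, the authors sequenced from both ends, trimmed reads with cutadapt 1.18, aligned them with HISAT2 to mm10 and assembled transcripts with StringTie, per the labels and the methods of the study; the counting program, its strand setting and the filter behind the table are not given in the sources used here. What the authors deposited are unnormalised counts for each gene symbol and library, and beside them their own comparison of KO with WT (fold changes, mean levels, p-values and false discovery rates), which was not used. Totals were 15597756 to 19875546 counts, the 6 libraries together held at least 59 counts for every gene, and every row named a gene.

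The steps in edgeR 4.0.16 under R 4.3.3 were filterByExpr by genotype (13804 genes kept, 5 left out), TMM scaling, and the quasi-likelihood test of genotype with no covariate, adjusted by Benjamini-Hochberg over all genes tested. Levels between genes were set per kb of exon in GENCODE M21 (GRCm38), where 13299 symbols matched. Ratios were tested by exact permutation. Alternatives were RLE size factors, TMM without *Rn45s*, DESeq2 1.42.0, edgeR's exact test, voom of limma 3.58.1, no filter, leaving out genes on X and Y, a minimum of 10 counts in every library, and each library left out in turn. The methods of the study call the 3 libraries of a genotype biological replicates, and the labels do not name the embryos behind them. The script was tested on simulated data. The members and the gene lists were chosen with earlier results of these data known. Named beside the members are *Pkm*, up to 3 called genes with the smallest adjusted p in each direction of each list, and the 3 genes with profiles nearest to *Nfya*. *Prkaa2*, *Tk1*, *Aurka* and *Ccnb1* were named after their values were seen. A few genes that this rule names are not reported here. Promoter windows were matched for 78.5% of the symbols, under the 80% set as a minimum, so motif shares in called genes were void and are not given.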

Additional observations from a re-analysis of the deposited data

How the results depend on the processing

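Over all genes, the 28 alternative counts lay within 1.5 times the 2168 lower and 2011 higher genes, from 1362 to 2306. The number of members called lower was 0, and was 1 with TMM scaling without *Rn45s* and 1 with edgeR's exact test (*Usf2* in both). With 1 library left out it ranged from 0 to 2, and the number called higher from 2 to 3. *Nfyb* ranged from -0.0790 to 0.0290 on the log2 scale with 1 library left out, and was above 0 without WT c (0.00971) and without KO b. *Usf1*, at 0.00125, was below 0 with TMM without *Rn45s* (-0.00530) and with voom (-0.00164), and ranged from -0.0679 to 0.0756 with 1 library left out; neither gene was called in any of 14 alternatives. Per kb of the longest transcript in place of all exons, levels were 12.8 for *Nfya*, 5.90 for *Nfyb*, 37.0 for *Nfyc*, 16.4 for *Sp1*, 8.49 for *Sp2*, 28.8 for *Sp3*, 12.8 for *Usf1* and 24.7 for *Usf2*, because the divisor is shorter. With the 200 bases before the start alone, 0 of 16 windows of the members held CACGTG. With at least 10 counts in every library, 1 cofactor gene was lower. No ratio between members changed sign in 35 alternative values. Motif shares by size of change were not run. No paired analysis was possible because the count columns carry no replicate numbers. The depth and the spread of 3 libraries a genotype limit what can be called, and for the 6 members not called the printed intervals bound the changes that these libraries leave possible.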

Other observations

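The profile of *Nfya* over the 6 libraries was set beside those of 11043 genes averaging 5 CPM or more, by the root mean square difference of centred log2 CPM. The nearest were *Ciapin1*, an iron-sulfur cluster assembly factor (0.0191), *Stab2*, a hyaluronan receptor of endothelium (0.0247), and *Snrnp48*, a subunit of the minor spliceosome (0.0281), where the median gene was at 0.169. *Ciapin1* was at 30.3, 33.5 and 30.4 CPM in WT a, b and c and at 36.4, 35.7 and 38.6 CPM in KO a, b and c. Like *Nfya*, it was highest in WT b among WT libraries and in KO c among KO libraries. The likeness is a description over 6 libraries, in which genotype and depth are shared by all genes.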
